A study of Mus musculus with 4 samples.

Results

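The 10 genes described here form the core of the Nrf2 response to oxidative and electrophilic stress, the defence that arsenic is known to engage. They were chosen by symbol (Nfe2l2, Keap1, Sqstm1, Hmox1, Nqo1, Gclc, Gclm, Txnrd1, Srxn1 and Prdx1), and all 10 were found once each among the 56691 genes of the RNA-seq table. The table covers 4 sarcomas of mice heterozygous for a p53 missense mutation, written p53R282W/+ in the sample labels after the human residue and abbreviated W/+. Of these, 2 came from mice given arsenic trioxide (ATO) in the drinking water and 2 from control mice labelled PBS, and they are called ATO 1, ATO 2, PBS 1 and PBS 2. Both groups carried the same germline allele, made by CRISPR/Cas9 on a C57BL/6N background, and the treated mice drank ATO from young adulthood until death. The labels give no age at collection, no sarcoma type and no statement that the 2 sarcomas of a group came from separate mice, so that p-values measure only the spread between these samples. The comparison asks whether the Nrf2 genes differed between sarcomas that grew under ATO and sarcomas that grew without it.

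Nrf2, the transcription factor encoded by Nfe2l2, is held at a low level by Keap1, which hands it to a Cul3 ubiquitin ligase for degradation. Electrophiles and trivalent arsenic react with cysteines of Keap1, Nrf2 then accumulates, pairs with a small Maf protein and binds antioxidant response elements near its target genes. Its targets make glutathione, reduce thioredoxin and peroxiredoxins, detoxify quinones, degrade heme and supply NADPH, and Sqstm1 encodes p62, a target that in turn draws Keap1 into autophagy. Much of this control acts on the Nrf2 protein, which RNA-seq does not measure.

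The antioxidant response element is the DNA sequence that links Nrf2 to its targets, so the RefSeq promoters (GRCm38) were searched for its core, TGACNNNGC, on both strands of the 250 bases before each start site. RefSeq promoters were matched for 8 genes (10 start sites). None was matched for Hmox1 and Gclc, so these 2 genes were not searched. Of the 10 windows, 4 held the core, against 10.2% of all 32851 windows of the same length. They are printed because they show which of the 8 genes searched carry the core close to the start: Nfe2l2 itself (chr2:75704664-75704913, minus strand), Gclm (chr3:122245307-122245556, plus strand), Txnrd1 at 1 of its 3 start sites (chr10:82858956-82859205, plus strand) and Prdx1 (chr4:116685349-116685598, plus strand). Each runs 5′ to 3′ in the direction of the gene, with the core in capitals.
Nfe2l2: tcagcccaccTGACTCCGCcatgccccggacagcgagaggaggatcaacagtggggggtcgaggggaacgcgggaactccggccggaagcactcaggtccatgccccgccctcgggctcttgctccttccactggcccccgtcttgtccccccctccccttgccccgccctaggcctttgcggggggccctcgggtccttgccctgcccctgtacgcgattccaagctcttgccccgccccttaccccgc
Gclm: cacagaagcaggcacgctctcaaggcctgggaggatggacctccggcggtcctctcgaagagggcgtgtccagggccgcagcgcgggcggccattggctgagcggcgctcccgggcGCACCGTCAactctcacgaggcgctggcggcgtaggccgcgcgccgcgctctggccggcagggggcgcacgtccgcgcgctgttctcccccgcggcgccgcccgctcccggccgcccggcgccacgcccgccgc
Txnrd1: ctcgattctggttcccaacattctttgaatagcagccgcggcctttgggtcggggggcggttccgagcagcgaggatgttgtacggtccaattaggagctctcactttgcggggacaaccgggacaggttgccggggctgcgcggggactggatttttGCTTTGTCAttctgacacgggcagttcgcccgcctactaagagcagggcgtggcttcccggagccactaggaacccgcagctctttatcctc
Prdx1: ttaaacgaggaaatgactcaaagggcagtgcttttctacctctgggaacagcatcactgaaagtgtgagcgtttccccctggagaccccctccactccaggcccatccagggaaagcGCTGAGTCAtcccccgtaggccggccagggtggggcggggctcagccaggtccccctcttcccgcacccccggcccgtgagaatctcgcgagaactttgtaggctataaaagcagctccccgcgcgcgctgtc
The left end of the core, as printed, lay 240 bases before the start site in Nfe2l2, 134 in Gclm, 92 in Txnrd1 and 133 in Prdx1, and the core was on the opposite strand in the last 3. In Prdx1 the core overlapped an AP-1 site (TGACTCA or its reverse, TGAGTCA), the element of the Fos and Jun factors. AP-1 sites were present in 2 of the 10 windows, those of Prdx1 and Srxn1, against 4.46% of all windows. These matches are letters in a sequence and do not show binding. Elements farther from the start were not searched.

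The 4 libraries held 15259695 to 18134000 counts, and all 10 genes were well above the limit that a count of 0 allows (3 counts, or 0.165 to 0.197 CPM, the count scaled to the size of the library; counting error only). The lowest count of any of the 10 genes in a sarcoma was 71, for Nqo1 in ATO 2. ATO 2 stood apart in that mitochondrial genes took 14.7% of its counts (95% exact binomial interval 14.7% to 14.8%), against 1.98% to 2.59% in the other sarcomas. The mesenchymal markers (Vim, 3 collagens, Pdgfra and Pdgfrb) were detected in all 4 sarcomas, with a summed FPKM of 1166 to 4861, and 2 of the 6 were lower in both ATO sarcomas than in both PBS sarcomas, Vim (131 and 272 against 581 and 812) and Pdgfrb (36.2 and 23.7 against 98.6 and 70.8). FPKM, as the authors deposited it, is the count scaled to the exonic length of the gene and to the total count of the library. Of all genes whose mean FPKM reached 1, 31% were lower in both ATO sarcomas than in both PBS sarcomas and 12.4% were higher. Markers of other tissues differed widely between the sarcomas. The summed FPKM of 8 skeletal muscle markers was 13030 in ATO 1 and 925 in ATO 2 against 6.26 and 114 in PBS, and 7 of the 8 were higher in both ATO sarcomas than in both PBS sarcomas, the exception being Myog, which was lower in ATO 2 (0.48) than in PBS 2 (0.63). For 6 adipocyte markers the sums were 237 in ATO 1 and 1401 in ATO 2 against 13.6 and 72.7 in PBS, and 6 of 6 were higher in both ATO sarcomas. Erythroid markers were high in PBS 2 and ATO 1, endothelial markers in PBS 2 and osteoblast markers in ATO 1. In bulk tissue, fewer cells of a type and less RNA per cell cannot be told apart.

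None of the 10 Nrf2 genes passed the test between the ATO and PBS sarcomas. For 9 of them, all but Gclm, the 2 sarcomas of a group differed more than the group means did. The same held for 73.6% of all genes tested. In edgeR's quasi-likelihood test 0 of 10 passed an adjusted p of 0.05, as did 0% of all 17188 genes tested, and the smallest adjusted p of the 10 was 0.683 (Gclm). An unadjusted p under 0.05 was reached by 0 of 10, against 8.51% of all genes, and DESeq2 called 0 of 10, against 3.26% of genes called higher and 0.87% called lower. The fitted level was higher in ATO for 7 of the 10 and lower for 3, where 49.2% of all genes were higher. Their median log2 fold change was 0.13, against -0.016 for all genes. Without ATO 2 the number of higher genes was 4 and the median was -0.30, against 45.8% and -0.094 over all genes. On FPKM, with limma and a pseudocount of 1, the number was 2, where 35.7% of all genes were higher. With 2 sarcomas against 2, an exact permutation test of a single gene cannot go below p = 0.333, and the biological coefficient of variation within groups was 62.5%, so that these counts do not show that the genes were unaffected.

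**Figure D1:**
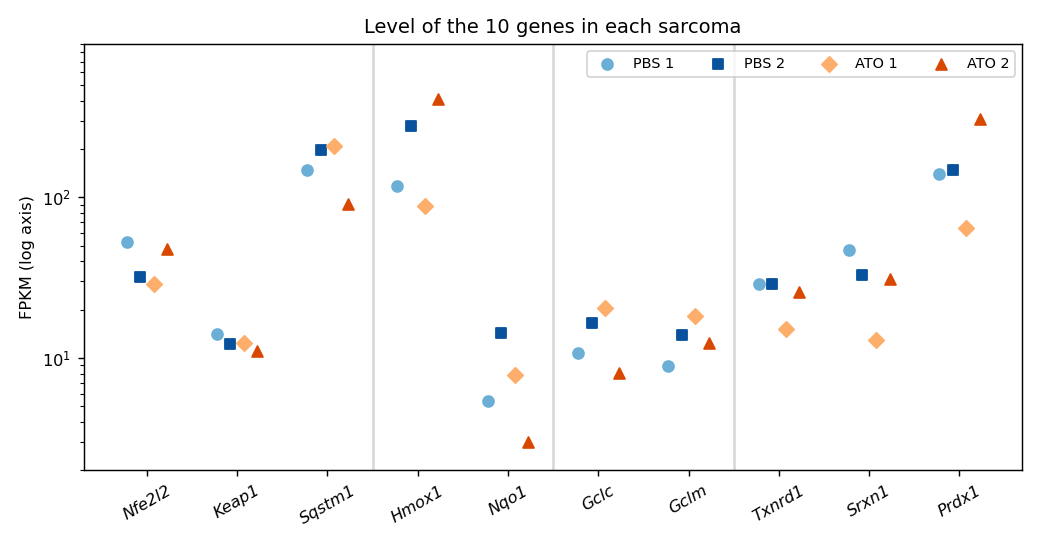
FPKM (log axis) of the 10 genes in each of the 4 sarcomas, 1 point per sarcoma, with lines between the roles (regulators, heme and quinone enzymes, glutathione synthesis, thiol and peroxide enzymes). The 2 ATO sarcomas lie at opposite ends for Prdx1 (64.7 and 309) and Hmox1 (88.1 and 409), while Keap1 stays between 11.03 and 14.2.

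Among the regulators, Nfe2l2 (ENSMUSG00000015839; chromosome 2, 75675513 to 75704641 of GRCm38), the gene of Nrf2, had an FPKM of 28.7 in ATO 1, 47.7 in ATO 2, 52.7 in PBS 1 and 31.9 in PBS 2. Each group thus held 1 sarcoma near 30 and 1 near 50, and the groups overlapped. Its log2 fold change was 0.17 (SE 0.56, 95% interval -1.30 to 1.64, edgeR adjusted p 0.950). Keap1 (ENSMUSG00000003308; chromosome 9, 21229730 to 21239361), the sensor and adaptor that marks Nrf2 for degradation, was the steadiest of the 10, with an FPKM of 12.3 in ATO 1, 11.03 in ATO 2, 14.2 in PBS 1 and 12.2 in PBS 2. The highest sarcoma exceeded the lowest 1.29 times, and the log2 fold change was 0.099 (SE 0.36, 95% interval -0.83 to 1.03, edgeR adjusted p 0.953). The interval allows anything from a fold of 0.561 to one of 2.05. Its fitted coefficient of variation, 39.8%, was at percentile 1.52 of all genes tested. Sqstm1 (ENSMUSG00000015837; chromosome 11, 50199366 to 50210827), the gene of the autophagy adaptor p62, was 1 of the 3 most abundant of the 10 in every sarcoma, with an FPKM of 208 in ATO 1, 90.4 in ATO 2, 149 in PBS 1 and 198 in PBS 2. ATO 1 had the highest level and ATO 2 the lowest, so that the ATO sarcomas enclosed both PBS sarcomas. The log2 fold change was 0.0086 (SE 0.58, 95% interval -1.52 to 1.54, edgeR adjusted p 0.997).

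Hmox1 (ENSMUSG00000005413; chromosome 8, 75093621 to 75100589) encodes heme oxygenase 1, which opens the heme ring and is the classical arsenic-inducible gene. Its FPKM was 88.1 in ATO 1, 409 in ATO 2, 117 in PBS 1 and 279.6 in PBS 2. ATO 2 had the highest and ATO 1 the lowest level, a 4.64-fold distance within the treated group, and the untreated sarcomas lay between them, themselves 2.39 times apart. TMM normalization corrects the library size for very abundant genes that differ between samples. On this scale the ATO sarcomas averaged 515 ± 510.5 CPM (SD, n = 2), against 316 ± 180.2 CPM (SD, n = 2) in the PBS sarcomas. The log2 fold change was 0.70 (SE 0.99, 95% interval -1.89 to 3.30, edgeR adjusted p 0.867), and it was -1.03 without ATO 2 and 1.46 without ATO 1. Macrophages, which degrade the heme of red cells, are a known site of Hmox1 expression. The summed FPKM of 7 macrophage markers was 911 in ATO 1, 5528 in ATO 2, 1849 in PBS 1 and 868 in PBS 2, with most of it from Lyz2 (594, 5115, 1497 and 698), and 0 of the 7 separated the groups. That of 4 erythroid markers was 9773, 1001, 269 and 17823 in the same order. Hmox1 was highest in ATO 2, and so were Lyz2, Adgre1, Cd68 and Itgam, whereas Mrc1 (68.5) and Cd163 (18.9) were highest in ATO 1 and Csf1r (76.2) in PBS 1. PBS 2 combined the second highest Hmox1 with the lowest macrophage sum. Their part in the level of Hmox1 was not tested.

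Nqo1 (ENSMUSG00000003849; chromosome 8, 107388225 to 107403206), whose product reduces quinones with NAD(P)H and which is widely used as a readout of Nrf2 activity, was the least abundant of the 10 in ATO 1, ATO 2 and PBS 1. Its FPKM was 7.88 in ATO 1, 3.0 in ATO 2, 5.42 in PBS 1 and 14.3 in PBS 2. ATO 2, the sarcoma with the most Hmox1, thus had the least Nqo1. The log2 fold change was -0.63 (SE 0.74, 95% interval -2.58 to 1.31, edgeR adjusted p 0.838), and without PBS 2 it was 0.21.

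Glutathione synthesis starts with glutamate-cysteine ligase, a pair of a catalytic subunit, Gclc, and a modifier subunit, Gclm, which relieves its feedback inhibition. Gclc (ENSMUSG00000032350; chromosome 9, 77754535 to 77794485) had an FPKM of 20.6 in ATO 1, 8.09 in ATO 2, 10.7 in PBS 1 and 16.5 in PBS 2, with ATO 1 highest and ATO 2 lowest. Its log2 fold change was 0.30 (SE 0.52, 95% interval -1.08 to 1.67, edgeR adjusted p 0.896), and without ATO 1 it was -0.34. Gclm (ENSMUSG00000028124; chromosome 3, 122245557 to 122270732) had an FPKM of 18.2 in ATO 1, 12.5 in ATO 2, 8.94 in PBS 1 and 13.9 in PBS 2. On TMM-normalized counts it was 114 CPM in ATO 1 and 95.8 in ATO 2, against 51.7 in PBS 1 and 79.3 in PBS 2. Gclm was therefore the single gene of the 10 with both ATO sarcomas above both PBS sarcomas on that scale, where 19.7% of all genes had this order and 20.2% the opposite one. On FPKM, ATO 2 lay below PBS 2 and the groups overlapped. The ATO sarcomas averaged 105 ± 12.7 CPM (SD, n = 2), against 65.5 ± 19.5 CPM (SD, n = 2) in the PBS sarcomas, a log2 fold change of 0.68 (SE 0.41, 95% interval -0.39 to 1.75, edgeR adjusted p 0.683). Its direction held in 13 of 13 alternatives, with values of 0.20 to 1.02, and the adjusted p stayed between 0.653 and 0.950.

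The thiol and peroxide enzymes are Txnrd1, a selenoprotein that reduces thioredoxin and is a known protein target of arsenic, Prdx1, a cytosolic peroxiredoxin that removes hydrogen peroxide, and Srxn1, which restores overoxidized peroxiredoxins. Txnrd1 (ENSMUSG00000020250; chromosome 10, 82833951 to 82897712) had an FPKM of 15.2 in ATO 1, 25.6 in ATO 2, 28.9 in PBS 1 and 29.1 in PBS 2. Both ATO sarcomas lay below both PBS sarcomas on FPKM, and the PBS sarcomas were nearly equal. On TMM-normalized counts ATO 2, at 222 CPM, was above PBS 1 (188) and PBS 2 (187), and ATO 1 (107) was below them. The log2 fold change was -0.19 (SE 0.52, 95% interval -1.55 to 1.17, edgeR adjusted p 0.942), and without ATO 1 it was 0.23. Srxn1 (ENSMUSG00000032802; chromosome 2, 152105516 to 152111376) had an FPKM of 13.0 in ATO 1, 31.2 in ATO 2, 46.9 in PBS 1 and 33.01 in PBS 2, so that ATO 1 stood well below the other sarcomas. By FPKM Srxn1 and Txnrd1 were the 2 genes of the 10 that were lower in both ATO sarcomas, an order found in 31% of all genes whose mean FPKM reached 1, while 12.4% had the opposite order and 0 of the 10 did. On TMM-normalized counts Srxn1 overlapped as well (36.6 and 108 CPM in ATO 1 and ATO 2, 121 and 84.3 in PBS 1 and PBS 2), and 0 of the 10 genes were below in both. Its log2 fold change was -0.51 (SE 0.63, 95% interval -2.16 to 1.14, edgeR adjusted p 0.846), and without ATO 1 it was 0.046.

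Prdx1 (ENSMUSG00000028691; chromosome 4, 116685544 to 116700822) had an FPKM of 64.7 in ATO 1, 309 in ATO 2, 139 in PBS 1 and 147 in PBS 2. The untreated sarcomas differed by 1.06 times and the treated ones by 4.77 times, with 1 far above and 1 well below the PBS level. On TMM-normalized counts the level was 196 CPM in ATO 1 and 1149 in ATO 2 against 388 in PBS 1 and 405 in PBS 2, and the log2 fold change was 0.76 (SE 0.93, 95% interval -1.68 to 3.20, edgeR adjusted p 0.846). It was 1.52 without ATO 1 and -1.01 without ATO 2. Over the 10 genes and the 13 alternatives, an unadjusted p under 0.05 was reached only by Prdx1 without ATO 1 (adjusted p 0.608 in edgeR), with ATO represented by a single sarcoma that was assumed to vary like the others.

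**Figure D2:**
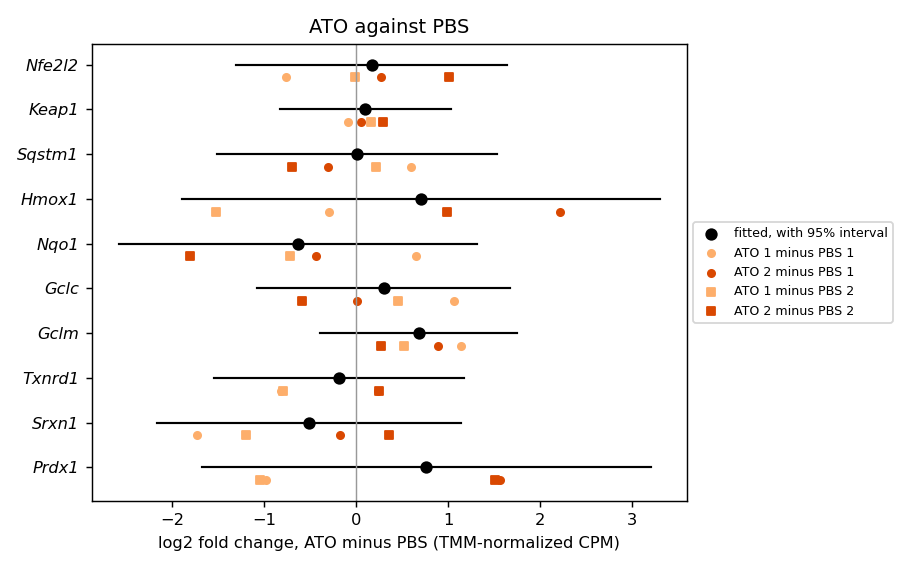
Log2 fold change of each gene, ATO minus PBS. Black points are the edgeR estimates with their 95% intervals, and small symbols below them are the 4 single differences between 1 ATO and 1 PBS sarcoma (light orange for ATO 1, dark orange for ATO 2; circles against PBS 1, squares against PBS 2). All 10 intervals include 0, and for Hmox1 and Prdx1 the differences of ATO 1 are negative and those of ATO 2 positive.

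The 2 treated sarcomas differed from each other more than the groups did for most of these genes. The difference between ATO 1 and ATO 2 was larger than that between the group means for 9 of the 10 genes (the exception being Gclm), as it was for 57.0% of all genes tested. Its median size was 1.05 on the log2 scale of TMM-normalized CPM, against 0.56 between the PBS sarcomas and 0.27 between the groups, and the same medians over all genes were 0.67, 0.63 and 0.55. ATO 1 was higher for Sqstm1, Nqo1, Gclc and Gclm, and ATO 2 for the other 6 (Nfe2l2, Keap1, Hmox1, Txnrd1, Srxn1 and Prdx1), of which Keap1 was higher in ATO 1 by FPKM. In the PBS sarcomas the same first 4 genes were all higher in PBS 2, and Hmox1 and Prdx1 with them. Of all 17188 genes tested, 8598 were higher in ATO 1 than in ATO 2 and 8354 in PBS 1 than in PBS 2. The mitochondrial share and the muscle, adipocyte and macrophage markers also differed between ATO 1 and ATO 2, as given above, and their part in these differences was not tested.

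Ratios of 2 genes within a sarcoma do not depend on how the libraries were scaled. The modifier to catalytic ratio of glutamate-cysteine ligase, Gclm to Gclc, was 0.882 in ATO 1, 0.836 in PBS 1 and 0.844 in PBS 2, per length, and the 95% intervals of these 3 overlapped. In ATO 2 it was 1.54 (95% interval 1.38 to 1.72). Txnrd1 to Prdx1 was 0.234 in ATO 1 (0.222 to 0.248), 0.208 in PBS 1 (0.200 to 0.217), 0.198 in PBS 2 (0.190 to 0.206) and 0.0829 in ATO 2 (0.0796 to 0.0864). ATO 2 thus stood apart on both ratios, and ATO 1 lay above both PBS sarcomas on the second by more than the counting error. Hmox1 to Nqo1 was 11.2 in ATO 1 (9.74 to 12.9), 21.6 in PBS 1 (18.3 to 25.7), 19.6 in PBS 2 (17.7 to 21.7) and 136 in ATO 2 (108 to 175). Srxn1 to Prdx1 was 0.201 in ATO 1, 0.101 in ATO 2, 0.337 in PBS 1 and 0.225 in PBS 2. Both ATO values were below both PBS values, but the intervals of ATO 1 (0.185 to 0.219) and PBS 2 (0.213 to 0.237) overlapped. Nfe2l2 to Keap1, the transcription factor over its repressor, was 2.33 in ATO 1, 4.32 in ATO 2, 3.72 in PBS 1 and 2.62 in PBS 2, so that here the PBS sarcomas lay between the ATO sarcomas. The mean log2 ratios of Nfe2l2 to Keap1 were 1.67 in ATO and 1.64 in PBS. The intervals are exact binomial intervals of the counts and cover counting error only, and the differences between groups were not tested.

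**Figure D3:**
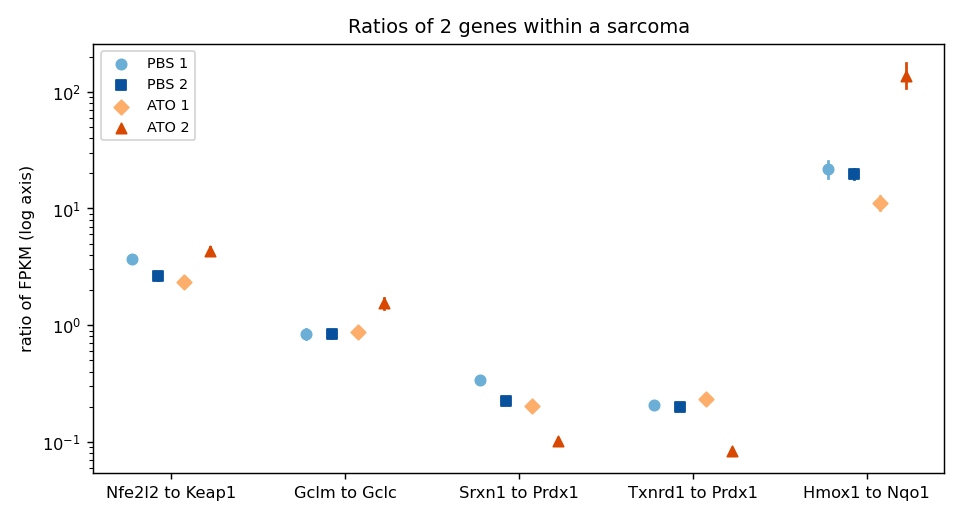
Ratio of the FPKM of 2 genes in the same sarcoma (log axis), 1 point per sarcoma with its 95% exact binomial interval. ATO 2 lies apart from the other 3 sarcomas for Gclm to Gclc (1.54), Txnrd1 to Prdx1 (0.0829) and Hmox1 to Nqo1 (136), and the ATO sarcomas lie on either side of the PBS sarcomas for Nfe2l2 to Keap1.

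The pathway beyond the 10 genes was described with 45 further genes in 5 lists, of which 41 had enough counts to be tested. The lists were chosen with earlier results of these data known, so their counts are descriptions only. In edgeR 0 of the 41 passed an adjusted p of 0.05 (smallest 0.570), 4 had an unadjusted p under 0.05 and a higher level in ATO, against 5.44% of all genes, and 0 had one with a lower level, against 3.07%. DESeq2 called 3 of them higher and 0 lower, against 3.26% and 0.87% of all genes. The fitted level was higher in ATO for 30 of the 41 and lower for 11, where 49.2% of all genes were higher, and the median log2 fold change was 0.68. Without ATO 2 this median was 0.16. By TMM-normalized CPM, 12 of the 41 had both ATO sarcomas above both PBS sarcomas and 2 had both below, against 19.7% and 20.2% of all genes. By FPKM the counts were 9 and 5 of the 39 whose mean FPKM reached 1, against 12.4% and 31% of all such genes. On the TMM scale ATO 1 was higher than ATO 2 in 13 of the 41, and in 8598 of all 17188 genes.

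The partners that act with Nrf2 and Keap1 showed no common direction, with 4 of 9 higher in ATO. They include the ubiquitin ligase subunits Cul3 and Rbx1, the small Maf proteins and the repressor Bach1. In edgeR 0 of 9 had an unadjusted p under 0.05, against 8.51% of all genes, and the smallest adjusted p of the 9 was 0.588. The median log2 fold change of the 9 was -0.20. Nfe2l1, which encodes the related factor Nrf1, had both ATO sarcomas above both PBS sarcomas, with an FPKM of 96.6 in ATO 1, 68.4 in ATO 2, 42.5 in PBS 1 and 46.1 in PBS 2, and Rbx1 had both below, with 13.9 in ATO 1, 14.1 in ATO 2, 22.7 in PBS 1 and 20.98 in PBS 2. Both were chosen for mention after their values were seen. Of all genes, 19.7% had the first order and 20.2% the second by TMM-normalized CPM. The estimate was 1.15 ± 0.46 (SE) on the log2 scale for Nfe2l1, with an adjusted p of 0.588 in edgeR, and -0.36 ± 0.36 (SE) for Rbx1, with an adjusted p of 0.808.

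Enzymes of NADPH supply (the pentose phosphate enzymes G6pdx, Pgd, Taldo1 and Tkt, with Me1 and Idh1) were fitted higher in ATO in 6 of 6 genes (median log2 fold change 1.52) and were higher in ATO 2 than in ATO 1 in 6 of 6, since 0 were higher in ATO 1. Only Idh1, 1 of the 6, had both ATO sarcomas above both PBS sarcomas, against 19.7% of all genes by TMM-normalized CPM. In edgeR 0 of 6 had an unadjusted p under 0.05, against 8.51% of all genes (smallest adjusted p of the 6 0.602). Tkt, the transketolase of that pathway, had an FPKM of 19.3 in ATO 1, 213 in ATO 2, 17.4 in PBS 1 and 39.0 in PBS 2, so that its level in ATO 1 was close to that of PBS 1. These enzymes also serve fat synthesis, and the adipocyte markers were highest in ATO 2. Their part in these levels was not tested. In the glutathione and thioredoxin list 10 of 13 genes were tested. Of these, 8 were fitted higher in ATO and 2 lower, with a median of 0.98. ATO 1 was higher than ATO 2 in 1 of the 10 by TMM-normalized CPM. On that scale 3 of the 10 had both ATO sarcomas above both PBS sarcomas, against 19.7% of all genes. Slc7a11, the cystine importer that feeds glutathione synthesis and is a known Nrf2 target, ranged widely, with an FPKM of 0.05 in ATO 1, 6.76 in ATO 2, 0.56 in PBS 1 and 4.17 in PBS 2. ATO 1 and PBS 1 were low and ATO 2 and PBS 2 high, whatever the treatment, and this gene too was singled out after its values were seen.

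Heme and iron genes had a higher fitted level in ATO in 5 of 5, with a median of 0.71. By TMM-normalized CPM 3 of the 5 had both ATO sarcomas above both PBS sarcomas, against 19.7% of all genes. Of these 3, Fth1 overlapped by FPKM, with 317.9 in ATO 1 and 318.1 in PBS 2. Blvrb, a biliverdin and flavin reductase, had an FPKM of 31.7 in ATO 1, 18.8 in ATO 2, 5.80 in PBS 1 and 9.38 in PBS 2. Both ATO sarcomas lay above both PBS sarcomas, and the estimate was 1.98 ± 0.46 (SE) on the log2 scale, with an adjusted p of 0.570 in edgeR and 0.0485 in DESeq2. In the list of detoxification and export, 7 of 11 tested genes were higher in ATO and 4 lower, with a median of 0.37. In edgeR 3 had an unadjusted p under 0.05 and a higher level, against 5.44% of all genes, and 0 had one with a lower level, against 3.07%. By TMM-normalized CPM, both ATO sarcomas lay above both PBS sarcomas for 4 of the 11 and below for 1. Over all genes these shares were 19.7% and 20.2%. Of the 4, Abcc4 overlapped by FPKM, with 4.92 in ATO 1 and 5.04 in PBS 2. Ces2g, a carboxylesterase, had an FPKM of 16.8 in ATO 1, 7.52 in ATO 2, 0.24 in PBS 1 and 0.76 in PBS 2, an estimate of 4.82 ± 0.81 (SE) on the log2 scale, with an adjusted p of 0.570 in edgeR and 2.56e-06 in DESeq2. Ephx1, the microsomal epoxide hydrolase, had 19.3 and 17.0 in ATO against 4.58 and 5.91 in PBS, an estimate of 2.06 ± 0.42 (SE) on the log2 scale, with an adjusted p of 0.570 in edgeR and 0.0199 in DESeq2. Aldh3a1, an aldehyde dehydrogenase, had 44 and 15 counts in ATO 1 and ATO 2 and 1 and 3 counts in PBS 1 and PBS 2, a ratio of 18.7 (exact binomial interval 6.92 to 70.8, counting error only), and its adjusted p was 0.570 in edgeR and 0.0731 in DESeq2. Akr1b8, an aldo-keto reductase, was the gene of this list with both ATO sarcomas below, with an FPKM of 8.35 in ATO 1, 37.1 in ATO 2, 86.2 in PBS 1 and 113 in PBS 2, and was named after its values were seen. Its estimate was -1.76 ± 0.86 (SE) on the log2 scale, with an adjusted p of 0.630 in edgeR and 0.407 in DESeq2. Blvrb, Ces2g, Ephx1 and Aldh3a1 were named for an unadjusted p under 0.05 in edgeR with a higher level in ATO. That choice favours genes with both ATO sarcomas above both PBS sarcomas, so that their shared order is no separate result. In all 4 genes ATO 1 had a higher FPKM than ATO 2. By TMM-normalized CPM, however, Ephx1 was higher in ATO 2 (40.5) than in ATO 1 (37.5). The summed muscle markers were likewise higher in ATO 1 and the adipocyte markers in ATO 2, and their part in these levels was not tested.

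**Figure D4:**
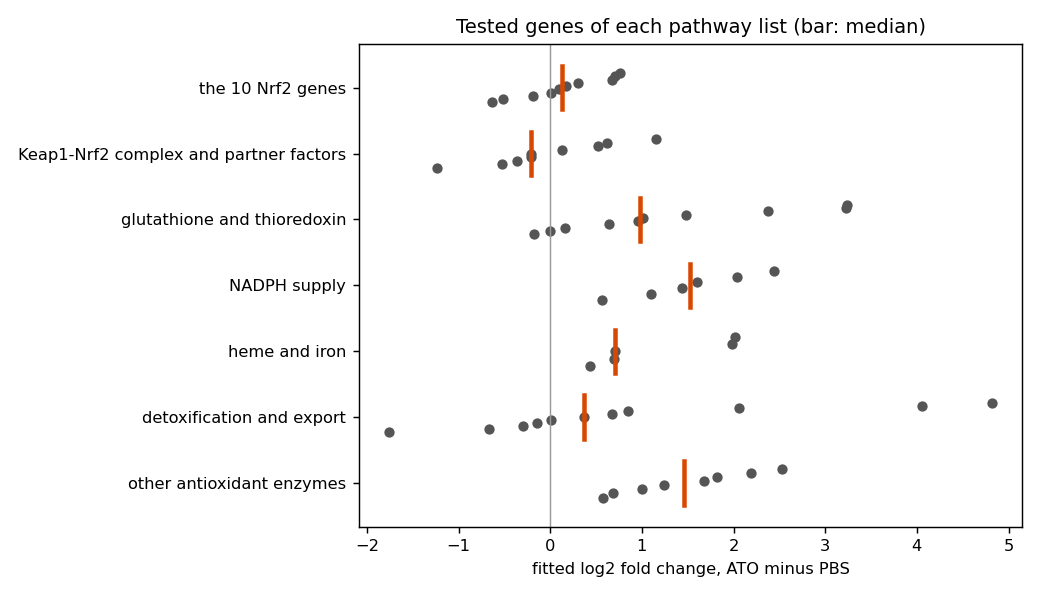
Fitted log2 fold change (ATO minus PBS, edgeR) of every tested gene, 1 point per gene, for the 10 Nrf2 genes and for each list of related genes. Bars mark the median, which is 0.13 for the 10 genes, 1.52 for NADPH supply and -0.20 for the partners of Keap1 and Nrf2.

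The counting could blur 3 of the 10 genes. In the GENCODE M21 annotation, exons of Keap1, Sqstm1 and Gclm overlap exons of other genes on the opposite strand (Gm16754, Mrnip and Gm17494), and whether reads were counted by strand is not given in the sources used here. These neighbours had at most 92, 40 and 51 counts in a sarcoma, against at least 790, 4628 and 982 for the 3 genes. Gclm also overlaps a pseudogene on its own strand, Gm6061, which had 0 counts in every sarcoma. Reads on shared exons may be counted for neither gene, so these counts do not measure what the 3 genes lost. The overlaps in the annotation used for counting may also differ from those of M21.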

How the data were processed

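RNA of 4 sarcomas was sequenced, and the labelled treatment assigned 2 to each group. The authors checked reads with FastQC 0.10.1, trimmed them with cutadapt 1.9.1, aligned them to GRCm38 with HISAT2 2.0.1 and counted them per gene with HTSeq. They deposited raw counts and FPKM per gene, and count, exonic size and total count gave every deposited FPKM to within 0.006. Library kits differ between labels and methods, and the labels give a growth protocol for cultured cells to all 4 samples. Only 2.83% of shared genes have their GENCODE M21 position in the table. The annotation and build used for counting are therefore unclear, and positions were taken from M21 by identifier.

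The main test of the counts was run in R 4.3.3 with edgeR 4.0.16 (low counts removed by filterByExpr, TMM, quasi-likelihood F-test, Benjamini-Hochberg adjustment over 17188 genes, threshold 0.05) and checked on simulated counts. Intervals of fold changes are 95% t intervals. Alternatives used DESeq2 1.42.0, limma 3.58.1 on FPKM or TPM, other filters, a replicate block and each sarcoma left out. Totals were 15259695 to 18134000 counts, and precision was limited by 2 sarcomas per group.

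The genes named are the 10 members and, of the 53 genes listed in 6 further lists, those with an unadjusted p under 0.05, up to 5 per direction. Nfe2l1, Rbx1, Akr1b8, Tkt, Slc7a11, Sod2 and Cat were named in addition, after their values were seen. Promoters were printed where they held the core element. Members, lists and markers were chosen with earlier results of these data known.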

Additional observations from a re-analysis of the deposited data

How the results depend on the processing

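Of the 10 Nrf2 genes, 0 passed the threshold in any of the 13 alternatives. The number of all genes past it was 754 in DESeq2, 541 in edgeR without a filter on low counts and 1 in limma on log2(TPM + 1). It was 0 in the others, with each sarcoma left out included. The cause was not tested.

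The number of the 10 genes higher in ATO, 7 in edgeR, was 2 in limma on log2(FPKM + 1) and on log2(FPKM + 0.1) and 1 on log2(TPM + 1). Leaving out each sarcoma gave 4 to 7. Their median log2 fold change was -0.38 on TPM and between -0.30 and 0.21 when 1 sarcoma was omitted. That of the further pathway genes was 0.14 on TPM and between 0.16 and 0.95 when 1 was omitted. The median of all genes was -0.23 on FPKM, where 35.7% of genes were higher, and -0.47 on TPM, where 26.9% were higher. The median of the 10 genes was above it on both scales (-0.15 and -0.38). By FPKM in place of TMM-normalized CPM, 0 of the 10 had both ATO above both PBS sarcomas and 2 had both below.

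The direction of Gclm was the same throughout. In limma on log2(FPKM + 1), log2(FPKM + 0.1) and log2(TPM + 1), the log2 fold change was -0.15, -0.15 and -0.37 for Nfe2l2. It was -0.16, -0.17 and -0.39 for Keap1, -0.32, -0.32 and -0.55 for Sqstm1, -0.029, -0.039 and -0.26 for Gclc, and -0.012, -0.015 and -0.24 for Prdx1. For Hmox1 it was -0.16 on TPM. Sqstm1 had -0.015 without a filter. With each sarcoma left out, the ranges were -0.43 to 0.58 for Nfe2l2, -0.022 to 0.22 for Keap1, -0.53 to 0.40 for Sqstm1, -1.03 to 1.46 for Hmox1, -1.30 to 0.21 for Nqo1, -0.34 to 0.74 for Gclc, -0.80 to 0.23 for Txnrd1, -1.48 to 0.046 for Srxn1 and -1.01 to 1.52 for Prdx1. The sign changed without ATO 1 for Sqstm1, Gclc, Txnrd1 and Srxn1, without ATO 2 for Nfe2l2, Hmox1 and Prdx1, without PBS 1 for Sqstm1, and without PBS 2 for Nfe2l2, Keap1 and Nqo1. The lone sarcoma of a group was then assumed to vary like the others.

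Both groups use the replicate numbers 1 and 2, but no source says that they pair the sarcomas, and the deviations of same-numbered sarcomas correlated at -0.024. With the replicate block 0 genes passed and Sqstm1 had -0.049, the single change of direction among the 10.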

Other observations

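A further list of 8 antioxidant enzymes that are not classed with the Nrf2 core (Sod1, Sod2, Cat, Gpx1, Gpx4, Prdx2, Prdx3 and Prdx5) had a higher fitted level in ATO in 8 of 8 genes, with a median log2 fold change of 1.46. This list too was chosen with earlier results of these data known, so its counts are descriptions only. In edgeR 0 of 8 passed an adjusted p of 0.05 (smallest 0.570), and 1, Prdx3, had an unadjusted p under 0.05, against 8.51% of all genes. By TMM-normalized CPM 6 of the 8 had both ATO sarcomas above both PBS sarcomas, where 19.7% of all genes did. By FPKM 5 did, against 12.4% of all genes whose mean FPKM reached 1. Prdx3, the mitochondrial peroxiredoxin, had an FPKM of 65.3 in ATO 1, 165.8 in ATO 2, 35.0 in PBS 1 and 29.5 in PBS 2, an estimate of 2.19 ± 0.67 (SE) on the log2 scale, with an adjusted p of 0.570 in edgeR and 0.0967 in DESeq2. Its cytosolic relative Prdx1 had ATO 1 below both PBS sarcomas. Sod2, the mitochondrial superoxide dismutase, had 8.77 and 46.5 in ATO against 7.27 and 5.17 in PBS, and Cat, the peroxisomal catalase, 52.5 and 158 against 41.1 and 35.2, both named after their values were seen. ATO 1 was higher than ATO 2 in 1 of the 8 by TMM-normalized CPM (Prdx2), and by FPKM also for Gpx1 (140.1 against 123.5). Over all genes tested, ATO 1 was the higher in 8598 of 17188 by TMM-normalized CPM. ATO 2 was also the sarcoma in which mitochondrial genes took 14.7% of the counts and the summed adipocyte markers reached an FPKM of 1401, and the part of either in these levels was not tested.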
